A study of Mus musculus with 15 samples.

Results

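The gene encoding the tumour suppressor p53, Trp53, and 8 of its target genes were followed in mouse embryonic stem cells grown in 5 media. The targets were Cdkn1a, Mdm2, Ccng1, Sesn2, Phlda3, Aen, Zmat3 and Trp53inp1. The 9 genes were taken by symbol from the 49585 genes of the count table, and all 9 were among the 15223 genes with enough counts to be tested. They are p53 itself and known targets, among them genes that arrest the cell cycle or feed back on p53 and on growth signals. The 9 genes were chosen with earlier results of these data known.

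All cells were of the E14 line, a wild-type mouse embryonic stem cell line, and had been maintained in 2i/Lif, which pairs a blocker of MEK (PD0325901 at 0.4 µM) with a blocker of GSK3 (CHIR99021 at 3 µM) and adds the cytokine Lif at 4 ng/ml. Cells were then embedded in growth factor reduced Matrigel, a basement membrane gel, at 2000 cells per µl, under N2B27, a medium without serum. The medium carried PD032 with an Aurora kinase A inhibitor (PD032+ Aurka inh, called the combination here), PD032 alone, the Aurora kinase A inhibitor alone (Aurka inh), FGF2/Activin, or 2iLif. Each medium had 3 libraries, 15 in all. PD032 is not spelled out in the labels, which also leave the Aurora kinase A compound unnamed and state neither the doses in the gel nor the days spent there. No group had N2B27 with no addition, so the effect of an inhibitor could be set only against other media. Since 2iLif itself holds PD0325901 and the cells came from it, 2iLif is a control for the starting state and not for an untreated cell. The study's title concerns the regulation of ERK signalling by mitotic kinases. Here the comparisons ask how the p53 genes stood under each medium.

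p53 is a transcription factor that is made continuously and destroyed continuously. Mdm2, a ubiquitin ligase, marks it for destruction, and damage or stress signals that release p53 from Mdm2 let it accumulate and switch on its targets. Because Mdm2 is itself a target, p53 raises its own inhibitor. Most of this control acts on the protein, so the Trp53 transcript measured here is not a measure of p53 activity. Other targets stop the cell cycle, restrain growth signalling, or prepare the cell for death. In mouse embryonic stem cells p53 has been linked to the silencing of Nanog, a naive state gene, on differentiation. Many of its targets also answer to other transcription factors.

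The 9 genes lie on 7 chromosomes of mm10 and are all protein coding in GENCODE M21. Trp53 (ENSMUSG00000059552) spans chr11:69580359-69591873 on the plus strand, and Ccng1 (ENSMUSG00000020326) spans chr11:40748552-40755311 on the minus strand. Mdm2 (ENSMUSG00000020184) spans chr10:117688875-117710758 on the minus strand. Cdkn1a (ENSMUSG00000023067) spans chr17:29090976-29100727 on the plus strand, where 273 of its exonic bases, or 7.68%, are shared with AC167363.2 on the opposite strand. Sesn2 (ENSMUSG00000028893) spans chr4:132492032-132510501 on the minus strand, and Trp53inp1 (ENSMUSG00000028211) spans chr4:11156431-11174379 on the plus strand. Phlda3 (ENSMUSG00000041801) spans chr1:135766119-135769136 and Aen (ENSMUSG00000030609) spans chr7:78895854-78911209, both on the plus strand. Zmat3 (ENSMUSG00000027663) spans chr3:32334792-32366014 on the minus strand. The library kit keeps strand, but whether counting used it is not given in the sources used here, so reads in the shared bases of Cdkn1a cannot be assigned. Trp53 also has a processed pseudogene, Trp53-ps, at chr17:54419680-54420841, and its reads could have been split by the authors' counting.

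The promoters of Cdkn1a and Ccng1 are printed because they are the ones in which the p53 consensus site was found, and because these genes moved in opposite directions in PD032. The site has 20 bases, made of 2 adjoining 10-base parts with a fixed C and G core in each, and reads the same on both strands. RefSeq promoter windows of GRCm38.p6, running 250 bases before to 50 bases after the start of transcription, were searched with up to 1 mismatch and no spacer. This setting was chosen after the sequences had been seen, and the genes were picked as p53 and its known targets. The counts that follow therefore describe the windows and are not a test. The windows covered 7 of the 9 genes, with 9 windows in all. A match lay in 2 of these windows, against 22 of all 32851 promoter windows (0.067%). Only the 250 bases before the start are shown, 5′ to 3′ on the gene's strand, with the match in capitals.
Cdkn1a, chr17:29090729-29090978, plus strand: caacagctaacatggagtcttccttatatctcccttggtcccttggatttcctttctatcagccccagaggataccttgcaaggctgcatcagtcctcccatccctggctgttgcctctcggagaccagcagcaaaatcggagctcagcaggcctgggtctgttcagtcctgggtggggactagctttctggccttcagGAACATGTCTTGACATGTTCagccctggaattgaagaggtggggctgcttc
Ccng1, chr11:40755287-40755536, minus strand: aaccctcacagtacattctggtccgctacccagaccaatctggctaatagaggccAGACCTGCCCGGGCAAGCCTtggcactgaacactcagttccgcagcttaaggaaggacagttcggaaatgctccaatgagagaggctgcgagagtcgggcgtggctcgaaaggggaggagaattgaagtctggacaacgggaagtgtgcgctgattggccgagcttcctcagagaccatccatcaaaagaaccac
In Cdkn1a the match runs 51 to 32 bases before the start of the printed window, at chr17:29090928-29090947. Cdkn1a has a second window for another start, chr17:29093519-29093818, and that window held no match. In Ccng1 it runs 195 to 176 bases before the start, at chr11:40755462-40755481. Each holds 1 mismatch. A match describes letters in a window and does not show binding, and known p53 sites often lie outside such windows.

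Library totals ran between 15199507 and 24202544 counts, and the lowest count of any of the 9 genes in any library was 605, for Phlda3. Replicates of the inhibitor media varied more than those of the other media. Their biological coefficient of variation was 8.91% for the combination, 9.32% for PD032 and 11.1% for Aurka inh, against 1.79% for FGF2/Activin and 4.52% for 2iLif. Within each inhibitor medium the library numbered 2 stood apart: the chi-square over its degrees of freedom, where 1 is sampling noise alone, was 9.81 to 19.2 in pairs with it and 2.59 to 6.74 between the other two. In 2iLif, library 3 stood apart (6.14 and 6.95, against 1.34 between the others), and in FGF2/Activin the pairs gave 1.24 to 1.57. The same-numbered inhibitor libraries deviated together. The labels do not say that replicates came from separate cultures, so p-values measure the spread between these libraries, which may be technical. The spread of each gene was estimated over all 15 libraries together. Tests among the inhibitor media therefore also draw on the tighter FGF2/Activin and 2iLif libraries. The inhibitor libraries are also named in another style than the FGF2/Activin and 2iLif libraries. If that marks a batch, batch and medium cannot be told apart for comparisons across the styles, which leaves the comparisons among the inhibitor media and FGF2/Activin against 2iLif within a style. Summed levels of 8 embryonic stem cell markers were 3431 to 3796 CPM (counts scaled to the TMM-adjusted library total) in the combination, 2457 to 2835 in PD032, 2567 to 3088 in Aurka inh, 2762 to 2814 in FGF2/Activin and 4436 to 4675 in 2iLif, with no marker at 0 in any medium. The single markers did not all follow the sum. In FGF2/Activin, Utf1 (561.1 to 592.6 CPM) and Lin28a (706.3 to 718.1) were higher than in 2iLif (147.5 to 161.1 and 490 to 507.4). The other markers were lower there, such as Esrrb (27.2 to 31.9 CPM, against 837.5 to 889.9 in 2iLif). In these bulk libraries fewer cells of a type and less RNA per cell cannot be told apart.

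All 9 genes were well expressed in every medium. Over all 15 libraries the levels per kilobase of exon were highest for Sesn2 at 126.6, Ccng1 at 100.9 and Trp53 at 91.3 CPM per kilobase, and lowest for Zmat3 at 14.1 CPM per kilobase. The genes differed in how far the media moved them. The highest medium mean was 3.53 times the lowest for Cdkn1a, 2.07 times for Trp53inp1, 1.95 times for Ccng1 and 1.85 times for Phlda3. For Aen it was 1.26 times and for Mdm2 1.29 times. None of the 9 had its highest mean in 2iLif, and 6 of the 9 had their lowest mean there. How often this held among all tested genes was not counted, so it describes these 9 genes only. PD032 held the highest mean of 4 genes (Mdm2, Ccng1, Sesn2 and Trp53inp1), Aurka inh that of Cdkn1a and Phlda3, FGF2/Activin that of Aen and Zmat3, and the combination that of Trp53.

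**Figure D1:**
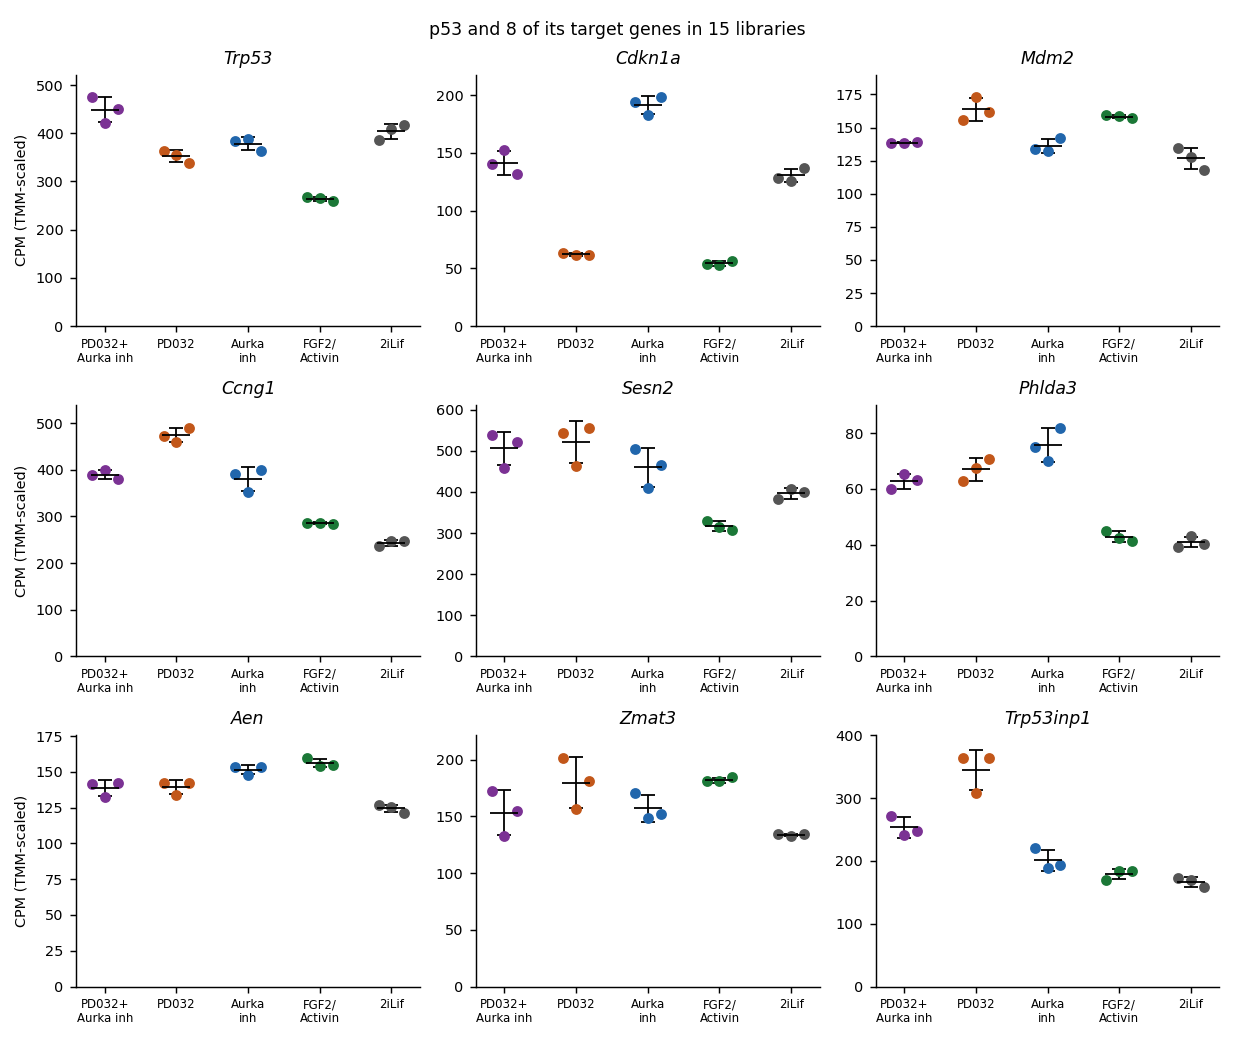
Levels of Trp53 and 8 p53 targets in 15 libraries. Each panel plots CPM (counts scaled to the TMM-adjusted library total) on the vertical axis against medium; points are libraries 1 to 3 from left to right, and the bar and whiskers are the mean and SD of 3. Cdkn1a is lowest in PD032 and FGF2/Activin (62.1 and 54.3 CPM), while Ccng1 and Trp53inp1 are highest in PD032 (474 and 345 CPM).

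Trp53 was highest in the combination and lowest in FGF2/Activin. Its level was 474, 422 and 449.9 CPM in the 3 combination libraries, 363, 355 and 339 CPM in PD032, and 383, 389 and 363 CPM in Aurka inh. It was 267, 265 and 259 CPM in FGF2/Activin and 387, 409 and 416 CPM in 2iLif. Every combination library lay above every other library, and every FGF2/Activin library lay below every other library, while Aurka inh overlapped with PD032 and 2iLif. In FGF2/Activin the transcript fell by 0.62 on the log2 scale against 2iLif (SE 0.051, edgeR adjusted p = 2e-08). The combination exceeded PD032 by 0.35 (SE 0.0504, edgeR adjusted p = 3.4e-05) and Aurka inh by 0.25 (SE 0.0504, edgeR adjusted p = 0.0012). Against 2iLif the combination was 0.15 higher (edgeR adjusted p = 0.021). That call was lost without 2iLif replicate 1 (adjusted p = 0.13) or 2 (0.058), and without combination replicate 1 (0.13) or 3 (0.053).

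Cdkn1a encodes p21, which inhibits cyclin-dependent kinases and is the textbook arrest target of p53. It was 140.0, 152 and 132 CPM in the combination, 63.4, 61.4 and 61.5 CPM in PD032, and 194, 183 and 198 CPM in Aurka inh. It was 53.8, 52.6 and 56.4 CPM in FGF2/Activin and 129, 126 and 137 CPM in 2iLif. The media formed 3 levels without overlap, with Aurka inh on top, the combination and 2iLif in the middle, and PD032 and, just below it, FGF2/Activin at the bottom. Cdkn1a fell 2.1-fold in PD032 (log2 fold change -1.07, SE 0.0584, edgeR adjusted p = 1.9e-10) and 2.4-fold in FGF2/Activin (-1.27, SE 0.0596, 2e-11) against 2iLif. It rose 1.47-fold in Aurka inh against 2iLif (log2 fold change 0.55, SE 0.0567, edgeR adjusted p = 4.4e-07). The combination did not pass against 2iLif (log2 fold change 0.12, 95% interval -0.0036 to 0.24, edgeR adjusted p = 0.1); without combination replicate 3 it did (0.16, adjusted p = 0.037).

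Between the inhibitor media Cdkn1a had the largest differences of the 9 genes. It was 3.08-fold lower in PD032 than in Aurka inh (log2 fold change -1.63, SE 0.0583, edgeR adjusted p = 5.4e-12). The combination lay between them: it was 2.28-fold higher than PD032 alone (log2 fold change 1.19, SE 0.058, edgeR adjusted p = 1.8e-10) and 1.35-fold lower than Aurka inh alone (-0.44, SE 0.0561, 1.8e-05). With the 3 inhibitor libraries numbered 2 left out, these differences were -1.65 for PD032 against Aurka inh, 1.12 for the combination against PD032 and -0.53 for the combination against Aurka inh, all still called.

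Mdm2, the ubiquitin ligase of the feedback loop, moved little. It was 139, 138 and 139 CPM in the combination, 156, 173 and 162 CPM in PD032, 134, 132 and 142 CPM in Aurka inh, 159, 159 and 157 CPM in FGF2/Activin, and 134, 128 and 118 CPM in 2iLif. PD032 and FGF2/Activin libraries all lay above the libraries of the other 3 media. Mdm2 thus rose in the media where Cdkn1a fell: by 0.37 in PD032 (SE 0.0525, edgeR adjusted p = 1.5e-05) and by 0.32 in FGF2/Activin (SE 0.0528, 5.3e-05), on the log2 scale against 2iLif. Against 2iLif it did not pass in Aurka inh (log2 fold change 0.10, edgeR adjusted p = 0.11) or in the combination (0.13, edgeR adjusted p = 0.057). Without 2iLif replicate 1 both passed, Aurka inh at an adjusted p of 0.029 and the combination at 0.03. Both also passed with library totals alone (edgeR adjusted p = 0.022 in each). Without the 3 inhibitor libraries numbered 2 they passed at 0.036 in Aurka inh and 0.028 in the combination. The combination was 0.24 lower than PD032 alone (edgeR adjusted p = 0.0013), and it did not pass against Aurka inh alone (log2 fold change 0.03, 95% interval -0.085 to 0.14, edgeR adjusted p = 0.75).

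Ccng1 encodes cyclin G1, a p53 target that recruits a phosphatase to Mdm2. It was 388, 399 and 380.3 CPM in the combination, 473, 459.5 and 490.2 CPM in PD032, and 390.0, 352 and 399 CPM in Aurka inh. It was 286, 287 and 284 CPM in FGF2/Activin and 236, 247 and 246 CPM in 2iLif. All 9 inhibitor libraries lay above all 6 others, and PD032 lay above every other library. Against 2iLif it rose 1.95-fold in PD032 (log2 fold change 0.96, SE 0.0493, edgeR adjusted p = 9.1e-11), 1.6-fold in the combination (0.68, 1.6e-08) and 1.56-fold in Aurka inh (0.65, 1.3e-08). In FGF2/Activin it rose 1.17-fold (0.23, edgeR adjusted p = 6e-04). Ccng1 carries a consensus match near its start and Cdkn1a near 1 of its 2 annotated starts. The 2 genes moved in opposite directions in PD032 and in FGF2/Activin.

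**Figure D2:**
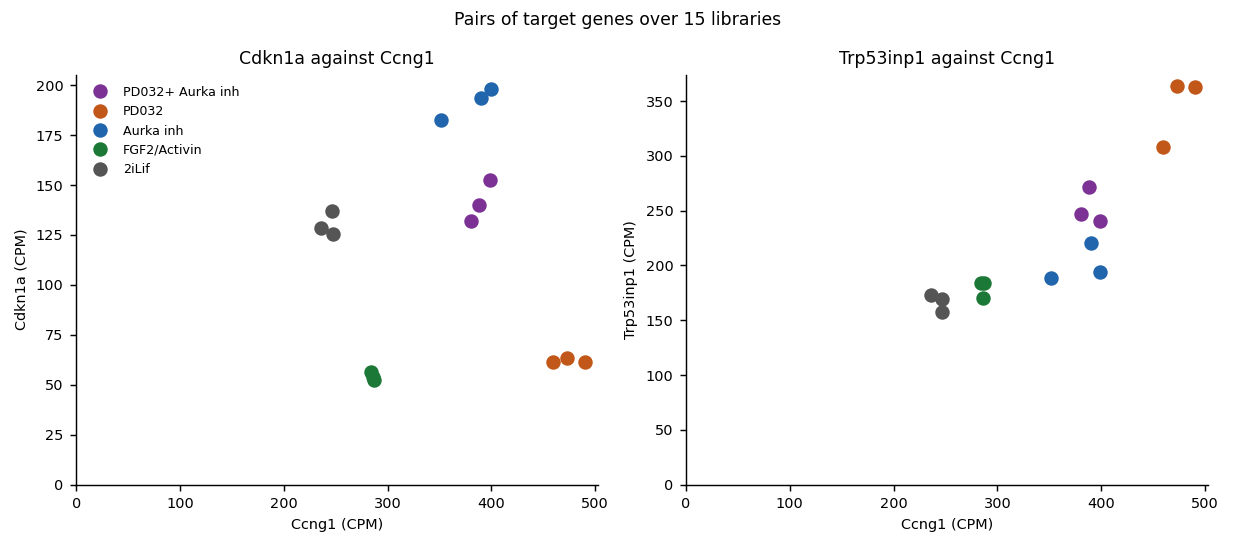
Pairs of targets over 15 libraries. Each point is a library coloured by medium, with Ccng1 on the horizontal axis of both panels and Cdkn1a (left) or Trp53inp1 (right) on the vertical axis, all in CPM. PD032 libraries have the highest Ccng1 (473, 459.5 and 490.2 CPM) with low Cdkn1a (63.4, 61.4 and 61.5 CPM), while Trp53inp1 rises with Ccng1 (Pearson r 0.893 of log2 CPM).

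Trp53inp1 encodes a nuclear and autophagy protein that promotes p53-dependent arrest and death. It was 272, 241 and 247 CPM in the combination, 364, 309 and 363 CPM in PD032, and 220.4, 189 and 194 CPM in Aurka inh. It was 170.1, 184 and 184 CPM in FGF2/Activin and 173, 169 and 158 CPM in 2iLif. PD032 lay on top, the combination next and Aurka inh below it, without overlap, while FGF2/Activin and 2iLif overlapped. Against 2iLif it rose 2.07-fold in PD032 (log2 fold change 1.05, SE 0.0748, edgeR adjusted p = 4.8e-09), 1.52-fold in the combination (0.60, SE 0.0745, 6.6e-06) and 1.21-fold in Aurka inh (0.27, SE 0.0747, 0.0056). The combination was 0.45 lower than PD032 alone (edgeR adjusted p = 0.00012) and 0.33 higher than Aurka inh alone (0.0023), on the log2 scale. In FGF2/Activin it did not pass (log2 fold change 0.10, edgeR adjusted p = 0.24), except with FGF2/Activin and 2iLif fitted alone (0.11, adjusted p = 0.014) or with the replicate block (0.11, 0.013).

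Phlda3 encodes a small membrane-binding protein that competes with Akt. It was 59.9, 65.2 and 63.1 CPM in the combination, 62.7, 67.6 and 70.6 CPM in PD032, and 75, 70.0 and 82 CPM in Aurka inh. It was 45, 42.5 and 41.3 CPM in FGF2/Activin and 39.3, 43 and 40.4 CPM in 2iLif. The 9 inhibitor libraries lay above the other 6, which overlapped. Phlda3 rose 1.85-fold in Aurka inh (log2 fold change 0.89, SE 0.0684, edgeR adjusted p = 1.5e-08), 1.64-fold in PD032 (0.71, 1.7e-07) and 1.53-fold in the combination (0.62, 2e-06) against 2iLif. In FGF2/Activin it did not pass (log2 fold change 0.07, 95% interval -0.079 to 0.22, edgeR adjusted p = 0.39). The combination was 0.27 lower than Aurka inh alone on the log2 scale (edgeR adjusted p = 0.0043).

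Sesn2 encodes sestrin 2, which holds back mTORC1, the growth kinase complex, when leucine is short. It was 537, 459 and 520.4 CPM in the combination, 542, 462 and 556 CPM in PD032, and 504, 410.1 and 466 CPM in Aurka inh. It was 329, 314 and 307 CPM in FGF2/Activin and 382, 408 and 400.4 CPM in 2iLif. The library numbered 2 was the lowest in each inhibitor medium, and the inhibitor media overlapped with each other but lay above 2iLif, which lay above FGF2/Activin. Against 2iLif Sesn2 rose in PD032 (log2 fold change 0.39, edgeR adjusted p = 0.00052), in the combination (0.35, 0.002) and in Aurka inh (0.21, 0.032), and fell in FGF2/Activin (-0.32, 0.0022). The Aurka inh call was lost without 2iLif replicate 1 (adjusted p = 0.084), Aurka inh replicate 1 (0.16) or Aurka inh replicate 3 (0.078). Among the inhibitor media no difference passed, but with the replicate number as a block Sesn2 was lower in Aurka inh: the combination was 0.12 higher (adjusted p = 0.0058) and PD032 0.17 higher (3e-04). PD032 also passed over Aurka inh without Aurka inh replicate 1 (adjusted p = 0.023) or PD032 replicate 2 (0.012).

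Aen, Mdm2 and Zmat3 had the smallest ranges of the 9 genes. Aen encodes an exonuclease that takes part in p53-dependent death; it averaged 139 ± 5.36 CPM in the combination, 139 ± 5 in PD032, 152 ± 3.27 in Aurka inh, 156 ± 3.08 in FGF2/Activin and 124 ± 2.7 in 2iLif (SD, n = 3 each). All 12 libraries of the other media lay above 2iLif, and edgeR called it higher in each, by 0.16 in the combination (adjusted p = 0.0084), 0.16 in PD032 (0.0047), 0.28 in Aurka inh (5.1e-05) and 0.33 in FGF2/Activin (7.9e-06). Zmat3 encodes a zinc finger protein that binds RNA and alters splicing and stability of transcripts. It averaged 153 ± 19.6 CPM in the combination, 179.6 ± 22.6 in PD032, 157 ± 11.9 in Aurka inh, 182 ± 2.17 in FGF2/Activin and 134 ± 1.05 in 2iLif (SD, n = 3 each). The spread in the inhibitor media came with library 2, which was lowest in each. Zmat3 rose against 2iLif in PD032 (log2 fold change 0.43, edgeR adjusted p = 0.00067), FGF2/Activin (0.44, 0.00042) and Aurka inh (0.23, 0.038). It did not pass in the combination (0.20, edgeR adjusted p = 0.086), except without combination replicate 2 (0.29, adjusted p = 0.011), without the 3 inhibitor libraries numbered 2 (0.29, 0.00011), with no filter on low counts (0.21, 0.0081) or with the replicate block (0.19, 0.021). The Aurka inh call on Zmat3 was lost without Aurka inh replicate 1 (adjusted p = 0.16) or 3 (0.053) and without 2iLif replicate 1 (0.062), 2 (0.074) or 3 (0.061).

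Set against 2iLif as a whole, the genes rose more often than they fell. In PD032 7 rose and 2 fell, with 63% of all tested genes called. Those that fell were Trp53, by 0.20 (edgeR adjusted p = 0.003), and Cdkn1a. All 9 were called in this comparison under every alternative tried. In Aurka inh 7 rose and 2 were not called, with 58.4% of all tested genes called. Trp53 differed there by -0.09 (edgeR adjusted p = 0.12), and it passed only without the 3 inhibitor libraries numbered 2 (-0.11, adjusted p = 0.034). In the combination 6 rose and 3 were not called, with 47.6% of all tested genes called. In FGF2/Activin 4 rose, 3 fell (Trp53, Cdkn1a and Sesn2) and 2 were not called, with 65.9% of all tested genes called. With about this share of all genes called, a call on a gene says little by itself here. The median log2 fold change of the 9 was 0.20 in the combination, 0.39 in PD032, 0.27 in Aurka inh and 0.10 in FGF2/Activin, beside medians over all tested genes of 0.01, 0.01, 0.01 and -0.01. Without the 3 inhibitor libraries numbered 2, 8 rose in the combination, 7 rose and 2 fell in PD032, and 8 rose and Trp53 fell in Aurka inh. The number of all genes called also moved over the alternatives. It was 6227 to 8615 in the combination (7243 in the fit used throughout), 8763 to 10682 in PD032 (9590) and 7818 to 9936 in Aurka inh (8888). The 4 comparisons against 2iLif share the same 2iLif libraries.

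**Figure D3:**
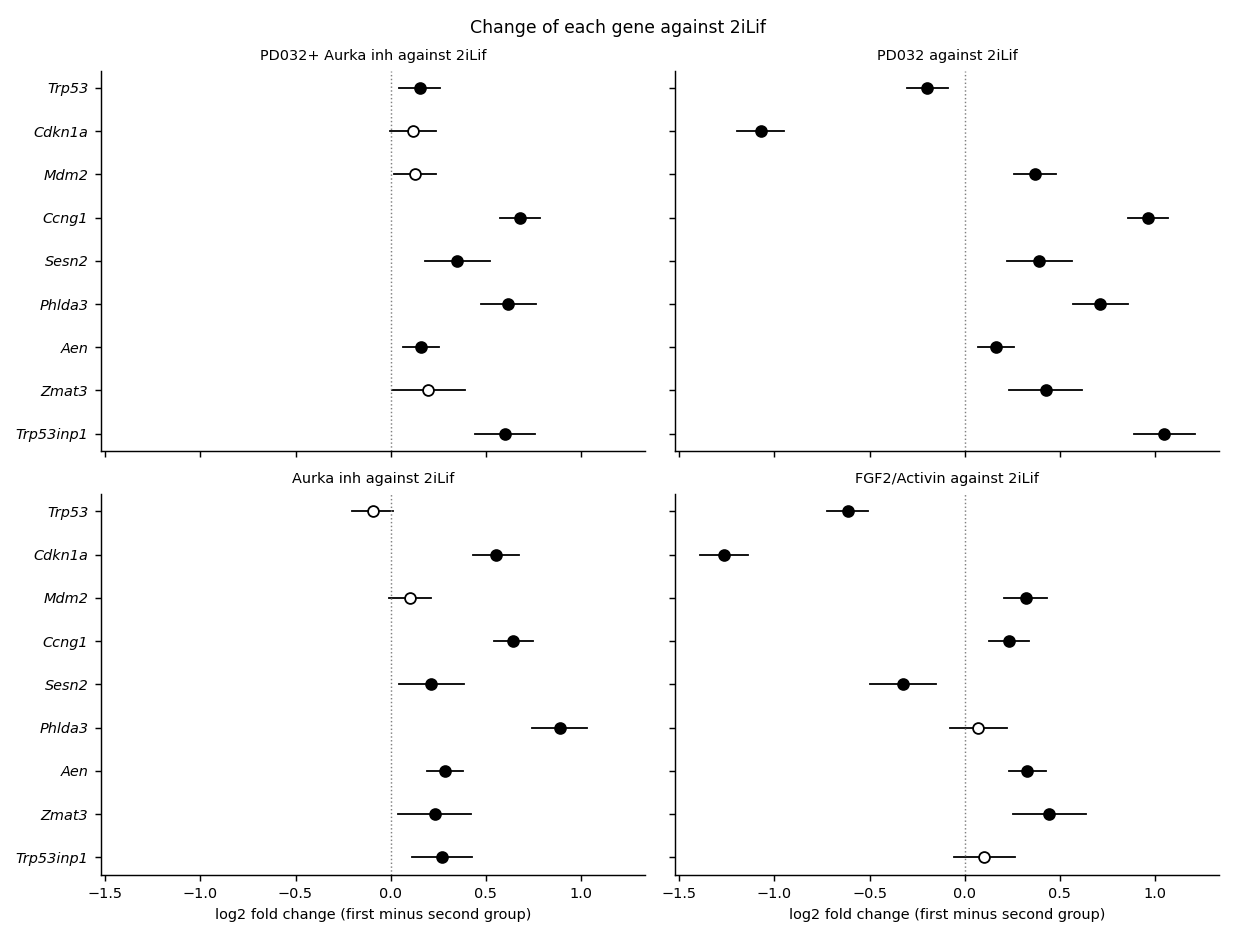
Change of each of the 9 genes against 2iLif in 4 media. The horizontal axis is the log2 fold change (medium minus 2iLif); points are edgeR estimates, lines are 95% intervals, and filled points passed at an adjusted p under 0.05. Cdkn1a stands at -1.07 in PD032 and -1.27 in FGF2/Activin, on the other side of 0 from its value in Aurka inh (0.55).

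Of the 8 targets, 7 rose in PD032 against 2iLif and 1, Cdkn1a, fell, where 32.1% of all tested genes rose. In Aurka inh 7 rose and 0 fell, where 28.9% of all tested genes rose. In the combination 5 rose and 0 fell (23.8% of all tested genes rose), and in FGF2/Activin 4 rose and 2 fell (33.3%). The targets were chosen with earlier results known, so these counts describe them and are not a test. The summed level of 5 neuroectoderm markers was highest in PD032. It was 21.8 to 32.2 CPM in the combination, 86.6 to 107.4 CPM in PD032, 34.7 to 60.1 CPM in Aurka inh, 62 to 66.8 CPM in FGF2/Activin and 8.71 to 11.1 CPM in 2iLif. Singly, Dll1 (44.7 to 51.2 CPM) and Pax6 (7.25 to 14.3 CPM) were highest in PD032. The other 3 were not: Sox1 reached 2.38 CPM in PD032 and 2.98 in 2iLif, Nes 42 CPM in PD032, 50.6 in Aurka inh and 49 in FGF2/Activin, and Zic1 0.129 CPM in PD032 and 0.447 in FGF2/Activin. Zic1 was at 0 in every library of the combination and of 2iLif. The part of these markers in the levels of the p53 genes was not tested.

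Set against FGF2/Activin, the inhibitor media had more Trp53 and, for Cdkn1a, a wide spread of differences. In the combination 6 of the 9 genes rose and 3 fell (Mdm2, Aen and Zmat3), with 66.8% of all tested genes called. In PD032 6 rose, Aen fell and 2 were not called, Mdm2 (0.05, edgeR adjusted p = 0.45) and Zmat3 (-0.02, 0.87), with 59% called. In Aurka inh 5 rose, Mdm2 fell and 3 were not called (Aen, Zmat3 and Trp53inp1), with 55.1% called. The Aen calls were lost with no filter on low counts (adjusted p = 0.06 in the combination and 0.08 in PD032), and the Zmat3 call in the combination was lost without combination replicate 2 (0.12) or FGF2/Activin replicate 3 (0.058). In Aurka inh, Zmat3 passed without Aurka inh replicate 1 (-0.28, adjusted p = 0.026) and Trp53inp1 without Aurka inh replicate 2 (0.21, adjusted p = 0.037). Both also passed with no filter on low counts (edgeR adjusted p = 0.0065 for Zmat3 and 0.022 for Trp53inp1). The same held with the 2 groups fitted alone (0.036 and 0.024) and with the replicate block (0.008 and 0.04). It held too without the 3 inhibitor libraries numbered 2 (0.0098 and 0.0028). Trp53 was higher by 0.77 in the combination (edgeR adjusted p = 1.9e-09), 0.42 in PD032 (3.3e-06) and 0.52 in Aurka inh (3.9e-07). Cdkn1a was higher by 1.38 in the combination (edgeR adjusted p = 1.1e-11) and 1.82 in Aurka inh (1.4e-12), but only by 0.19 in PD032 (0.011), a call that was lost without FGF2/Activin replicate 2 (adjusted p = 0.051). Sesn2 was higher by 0.67 in the combination (edgeR adjusted p = 1.9e-06), 0.72 in PD032 (1.5e-06) and 0.54 in Aurka inh (3.8e-05). Ccng1 was higher by 0.45 in the combination (edgeR adjusted p = 6.6e-07), 0.73 in PD032 (4.1e-09) and 0.41 in Aurka inh (3.1e-06). Phlda3 was higher by 0.55 in the combination (edgeR adjusted p = 2.9e-06), 0.64 in PD032 (7.4e-07) and 0.82 in Aurka inh (6e-08). Trp53inp1 was higher by 0.50 in the combination (edgeR adjusted p = 2e-05) and 0.95 in PD032 (2.6e-08).

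Among the inhibitor media, the combination had more Trp53 and Cdkn1a than PD032 alone and less of other targets. Of the 9 genes 2 rose and 4 fell in the combination against PD032, with 43.7% of all tested genes called. Those that fell were Mdm2, Ccng1 (log2 fold change -0.29, edgeR adjusted p = 0.00017), Trp53inp1 and Zmat3 (-0.23, edgeR adjusted p = 0.048). Zmat3 libraries overlapped, and its call was lost with DESeq2 (adjusted p = 0.067), with the 2 groups fitted alone (0.16), without combination replicate 2 (0.22) or 3 (0.09), and without PD032 replicate 1 (0.24) or 3 (0.1). In each same-numbered pair of libraries, however, Zmat3 was lower in the combination. With the replicate number as a block it stayed called (-0.24, edgeR adjusted p = 5.1e-05). Sesn2 (log2 fold change -0.04, 95% interval -0.21 to 0.13, edgeR adjusted p = 0.71), Phlda3 (-0.09, interval -0.23 to 0.045, 0.26) and Aen (-0.01, interval -0.1 to 0.09, 0.94) did not pass.

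Set against Aurka inh alone, the combination had more Trp53 and Trp53inp1 and less Cdkn1a, Phlda3 and Aen. These 5 were called in the combination against Aurka inh, with 34.9% of all tested genes called. The Aen difference was -0.13 (edgeR adjusted p = 0.039) and was lost without Aurka inh replicate 1 (adjusted p = 0.09) or 3 (0.11), without combination replicate 2 (0.15), with the 2 groups fitted alone (0.086) and with no filter on low counts (0.3). With the replicate number as a block Aen stayed called (-0.14, edgeR adjusted p = 0.0018). Ccng1 differed by 0.03 (95% interval -0.07 to 0.14, edgeR adjusted p = 0.64), and both media lay below PD032 for this gene. Zmat3 differed by -0.03 (edgeR adjusted p = 0.81).

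PD032 against Aurka inh had the widest range of log2 fold changes among the inhibitor media. It ran from -1.63 (Cdkn1a) to 0.78 (Trp53inp1). Mdm2 (log2 fold change 0.27, edgeR adjusted p = 0.00057), Ccng1 (0.32, 5.8e-05) and Trp53inp1 (0.78, SE 0.0739, 3.6e-07) were higher in PD032. Cdkn1a, Phlda3 (-0.18, edgeR adjusted p = 0.038) and Aen (-0.12, 0.037) were lower, and 3 genes were not called, with 45.5% of all tested genes called. The Phlda3 and Aen calls were not firm. Phlda3 libraries overlapped, and its adjusted p was 0.058 and 0.19 without Aurka inh replicates 1 and 3, and 0.17 and 0.056 without PD032 replicates 1 and 2. For Aen it was 0.085 and 0.1 without Aurka inh replicates 1 and 3, and 0.053, 0.13 and 0.053 without PD032 replicates 1, 2 and 3. Both calls were also lost with library totals (Phlda3 0.075, Aen 0.11), with no filter on low counts (0.11 and 0.28) and with the 2 groups fitted alone (0.07 and 0.065). Without the 3 libraries numbered 2, 5 were higher and 3 lower. The number of all tested genes called moved too, between 5291 and 8648 over the alternatives, against 6928 in the fit used throughout. With the replicate number as a block, all 9 genes were called: Trp53 was 0.11 lower in PD032 (adjusted p = 0.012) and Zmat3 0.18 higher (0.00062), beside Sesn2 above. Without the block, Trp53 was 0.10 lower (edgeR adjusted p = 0.11) and Zmat3 0.19 higher (0.088). Zmat3 also passed without Aurka inh replicate 1 (0.04) or PD032 replicate 2 (0.012).

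**Figure D4:**
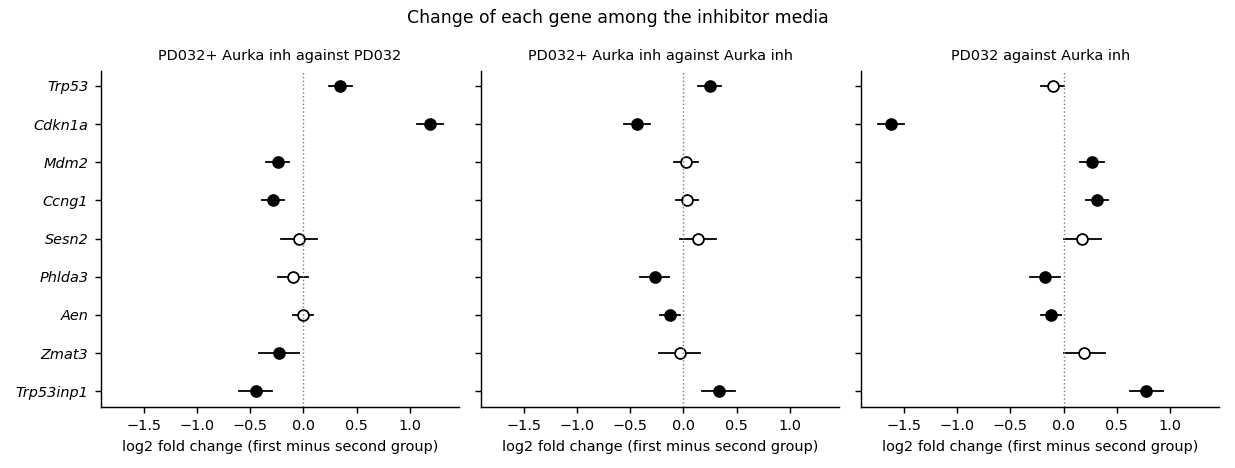
Change of each of the 9 genes among the inhibitor media. The horizontal axis is the log2 fold change, first-named medium minus second; points are edgeR estimates, lines are 95% intervals, and filled points passed at an adjusted p under 0.05. Cdkn1a is 1.19 higher in the combination than in PD032, and Trp53inp1 is 0.45 lower.

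Over the 15 libraries some targets varied together and others did not. On log2 CPM, Pearson r was 0.893 for Ccng1 with Trp53inp1, 0.879 for Ccng1 with Phlda3 and 0.766 for Ccng1 with Sesn2. For Ccng1 with Cdkn1a it was -0.036, and for Cdkn1a with Mdm2 it was -0.815. Trp53 had r of 0.747 with Cdkn1a and -0.655 with Mdm2. These points share medium and library, so the values mostly describe differences between 5 media, and no p is given.

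The genes most like Trp53, Cdkn1a and Mdm2 over the same 15 libraries were looked up among 8689 named genes with a mean of at least 10 CPM. For Trp53 they were Rbl1 (r 0.983), a pocket protein of the cell cycle, Ube2d3 (0.983), a ubiquitin-conjugating enzyme, and Slc17a9 (0.981), a nucleotide transporter. For Cdkn1a they were Asb1 (0.976), Pid1 (0.976) and Sccpdh (0.966). Sccpdh averaged 69.3 CPM in the combination, 14.4 in PD032, 87.1 in Aurka inh, 13.5 in FGF2/Activin and 77.4 in 2iLif. For Mdm2 they were Rbbp8 (0.942), a DNA end-processing factor, Obsl1 (0.938) and Shb (0.935). Shb, an adaptor of receptor tyrosine kinases, averaged 30.4 CPM in the combination, 91.6 in PD032, 29.8 in Aurka inh, 61.3 in FGF2/Activin and 22.1 in 2iLif, which is a wider range than that of Mdm2.

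A wider list of 30 other p53 targets, of which 29 were tested (Fas was not), held more that rose than fell against 2iLif. In the combination 15 rose and 4 fell, where 23.8% of all tested genes rose and 23.8% fell. In PD032 19 rose and 3 fell, where 32.1% of all tested genes rose and 30.9% fell. In Aurka inh 14 rose and 6 fell (28.9% and 29.5% of all tested genes), and in FGF2/Activin 16 rose and 6 fell (33.3% and 32.6%). Their median log2 fold change was 0.26 in the combination, 0.51 in PD032, 0.35 in Aurka inh and 0.26 in FGF2/Activin, beside medians over all tested genes of 0.01, 0.01, 0.01 and -0.01. The widest range belonged to Pmaip1, which encodes Noxa, a death protein of the BH3-only family. It averaged 11.3 ± 0.627 CPM in the combination, 9.24 ± 1.36 in PD032, 74.5 ± 12.8 in Aurka inh, 60.5 ± 2.71 in FGF2/Activin and 2.11 ± 0.331 in 2iLif (SD, n = 3 each). Like Cdkn1a it was lower in PD032 than in Aurka inh (log2 fold change -3.01, SE 0.122, edgeR adjusted p = 2e-11), but unlike Cdkn1a it was also higher in FGF2/Activin than in 2iLif (4.84, SE 0.159, 3.5e-13).

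Other named targets on the list differed in direction. Sfn, which encodes 14-3-3 sigma, a protein that holds cells before mitosis, averaged 5.19 ± 0.247 CPM in the combination, 3.31 ± 0.66 in PD032, 6.85 ± 0.152 in Aurka inh and 25.2 ± 0.304 in 2iLif, and fell against 2iLif in all 3 inhibitor media (log2 fold changes -2.27, -2.91 and -1.88, edgeR adjusted p of 3e-10 or less). Epha2, an ephrin receptor, averaged 108 ± 9.64 CPM in the combination, 34.8 ± 1.09 in PD032 and 122 ± 14 in Aurka inh, beside 189 ± 1.52 in FGF2/Activin and 90.7 ± 1.64 in 2iLif. Like Cdkn1a it was higher in the combination than in PD032 (log2 fold change 1.64, edgeR adjusted p = 1.2e-10). Btg2, which slows proliferation, was lower in the combination (29.5 ± 1.45 CPM) than in PD032 (61.6 ± 6.49 CPM; log2 fold change -1.07, edgeR adjusted p = 5.3e-08).

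Among the inhibitor media the 29 targets split. In the combination against PD032 3 rose and 11 fell, and with the replicate block 5 rose; 20% of all tested genes rose and 23.8% fell. In the combination against Aurka inh 5 rose and 9 fell, and with the block 14 fell; 18.6% of all tested genes rose and 16.3% fell. In PD032 against Aurka inh 14 rose and 7 fell, where 25.8% of all tested genes rose and 19.7% fell.

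**Figure D5:**
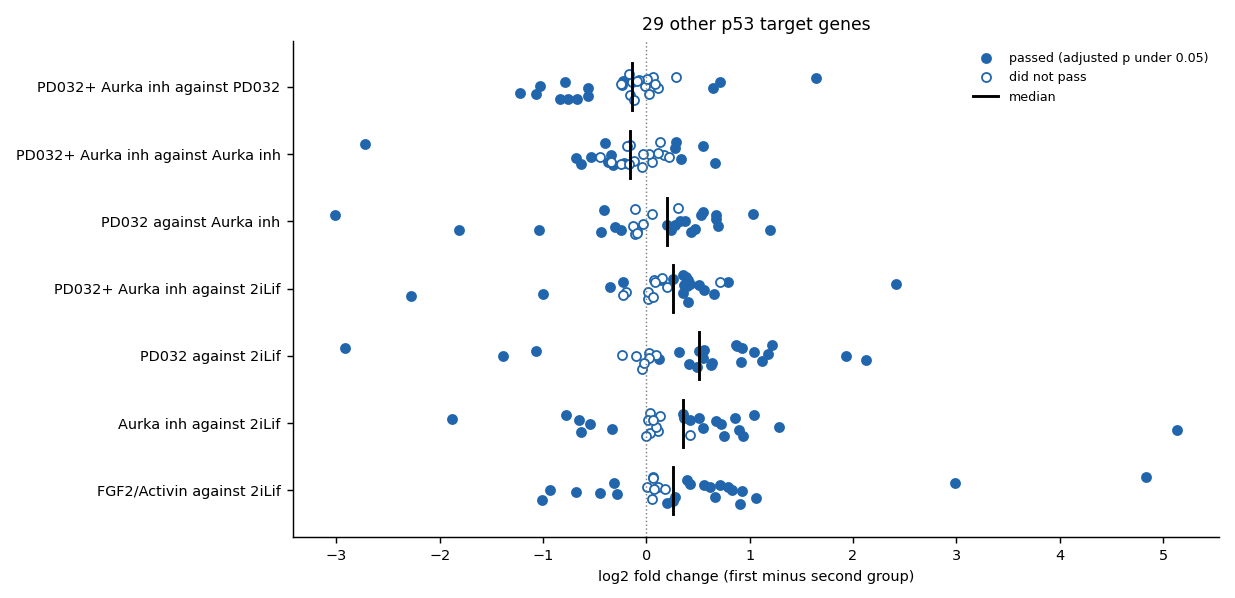
Changes of 29 other p53 targets in 7 comparisons. The horizontal axis is the log2 fold change, first-named medium minus second; each point is a gene, filled where it passed at an adjusted p under 0.05, spread vertically only to separate points, and the black bar is the median. Medians lie at 0.51 in PD032 and 0.35 in Aurka inh against 2iLif, and at -0.14 in the combination against PD032; the points furthest right are Pmaip1 in Aurka inh (5.14) and in FGF2/Activin (4.84).

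Of 19 tested p53 regulators (Trp63 was not tested), 6 rose in the combination, 7 rose and 4 fell in PD032, 5 rose and 3 fell in Aurka inh, and 5 rose and 5 fell in FGF2/Activin, all against 2iLif. The shares of all tested genes called in these comparisons were 47.6% in the combination, 63% in PD032, 58.4% in Aurka inh and 65.9% in FGF2/Activin. In FGF2/Activin 8 fell with the 2 groups fitted alone or with the replicate block. Without PD032 replicate 1, 2 fell in PD032; without the 3 inhibitor libraries numbered 2, 10 rose in the combination and 8 in Aurka inh. Trp53bp1, a damage-response scaffold that binds p53, averaged 172 ± 19.4 CPM in the combination, 299 ± 15.4 in PD032, 172 ± 12.5 in Aurka inh, 204 ± 3.92 in FGF2/Activin and 112 ± 3.33 in 2iLif, and rose in all 4 media against 2iLif. Trp73, the p53 relative, averaged 16.2 ± 0.631 CPM in the combination, 44.7 ± 1.56 in PD032, 22.9 ± 2.97 in Aurka inh, 19.6 ± 1 in FGF2/Activin and 5.41 ± 0.746 in 2iLif, and also rose in all 4. Mdm4, the partner of Mdm2 that masks p53, fell in FGF2/Activin (144 ± 1.87 CPM, against 290 ± 17.7 CPM in 2iLif; log2 fold change -1.01, edgeR adjusted p = 8.8e-09), where Mdm2 rose.

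Of 10 tested relatives of the 9 genes, 9 were higher in PD032 than in Aurka inh, where 25.8% of all tested genes were higher. In the combination 7 were lower than in PD032, where 23.8% of all tested genes were lower. Sesn3, a sestrin, averaged 139 ± 11 CPM in the combination, 249 ± 16.8 in PD032, 109 ± 12.2 in Aurka inh and 47.9 ± 2.98 in 2iLif (SD, n = 3 each). It was 1.19 higher in PD032 than in Aurka inh on the log2 scale (SE 0.0779, edgeR adjusted p = 4.6e-09), where Sesn2 differed by 0.18. Ccng2, the relative of Ccng1, was also higher in PD032 (29.7 ± 1.98 CPM) than in Aurka inh (15 ± 1.83 CPM; log2 fold change 0.98, edgeR adjusted p = 6.1e-06). Zmat4, the relative of Zmat3, averaged 5.45 ± 0.936 CPM in the combination, 11 ± 0.29 in PD032, 2.87 ± 0.854 in Aurka inh, 2.27 ± 0.359 in FGF2/Activin and 19.1 ± 0.613 in 2iLif. Its level was higher in PD032 than in Aurka inh (log2 fold change 1.95, edgeR adjusted p = 1.3e-07) but fell in all 4 media against 2iLif. Some of these genes, such as Trp73 and Mdm4, stand on more than 1 list.

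Of 6 other inhibitors of cyclin-dependent kinases tested, 4 were higher in PD032 than in Aurka inh, where Cdkn1a was lower and 25.8% of all tested genes were higher. In FGF2/Activin against 2iLif, where Cdkn1a fell, Cdkn1b (log2 fold change -0.50), Cdkn2a (-0.74) and Cdkn2d (-0.88) fell too (edgeR adjusted p of 0.0019 or less). Cdkn1c, which encodes p57, averaged 7.13 ± 0.473 CPM in the combination, 12.3 ± 1.58 in PD032, 8.64 ± 0.676 in Aurka inh, 19.2 ± 1.49 in FGF2/Activin and 1.89 ± 0.301 in 2iLif, and rose in all 4 media against 2iLif (edgeR adjusted p of 5.4e-08 or less). Cdkn1b, which encodes p27, averaged 104 ± 5.77 CPM in the combination, 104 ± 4.92 in PD032, 76.8 ± 2.87 in Aurka inh, 52.4 ± 1.93 in FGF2/Activin and 74.1 ± 2.54 in 2iLif. It rose in the combination (log2 fold change 0.49, edgeR adjusted p = 2.7e-06) and in PD032 (0.49, 1.3e-06) against 2iLif. Cdkn2a averaged 33.2 ± 7.51 CPM in PD032 and 15.3 ± 3.52 in Aurka inh (log2 fold change 1.13, edgeR adjusted p = 3.2e-05).

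A last list held genes that p21 is known to lower through the DREAM repressor complex. Of 18 tested, 10 rose and 2 fell in Aurka inh against 2iLif (4 fell without Aurka inh replicate 2 or without the 3 inhibitor libraries numbered 2), where 28.9% of all tested genes rose and 29.5% fell. The median log2 fold change was 0.15, beside 0.01 over all tested genes. Plk1, a mitotic kinase, averaged 208 ± 4 CPM in Aurka inh and 153 ± 2.22 CPM in 2iLif (log2 fold change 0.44, edgeR adjusted p = 9.4e-08). Mybl2, which encodes a transcription activator, fell to 329 ± 22.5 CPM in Aurka inh, against 591 ± 7.93 CPM in 2iLif (log2 fold change -0.85, edgeR adjusted p = 4.4e-10). In PD032, where Cdkn1a was low, 7 rose and 6 fell against 2iLif, where 63% of all tested genes were called. In PD032 2 were higher and 6 lower than in Aurka inh, where 45.5% of all tested genes were called (10 lower with the replicate block, and 1 higher without Aurka inh replicate 1 or 3 or PD032 replicate 2).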

How the data were processed

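The deposited table held whole-number counts per gene for 15 libraries, not normalized. Per the submitters' processing notes, the authors aligned reads to mm10 with STAR and used DESeq2 (no versions given). How reads were counted, with which annotation and whether by strand, is not given in the sources used here. Per the labels' protocols, messenger RNA was selected by its poly(A) tail and made into libraries with a directional kit. A deposited table of normalized values was not used. Identifiers were matched to GENCODE M21 for 49326 of 49585 genes.

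Genes were kept by filterByExpr of edgeR 4.0.16 in R 4.3.3 (15223 genes), scaled by TMM, and fitted in one quasi-likelihood model over all 15 libraries with a term per medium. Each of 10 pairwise comparisons was tested two-sided with Benjamini-Hochberg adjustment over all tested genes, and a gene was called at an adjusted p under 0.05. Every p in the text is from this edgeR fit unless another setting is named. The SE is the log2 fold change over the square root of its F statistic. CPM on the log2 scale had 2 added as prior count. The fit was also run on simulated counts with 200 changed genes, independent libraries and the same spread in all media. The real libraries differ in all of these respects, so that run cannot show how the fit performs on them.

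Alternatives were DESeq2 1.42.0, library totals without TMM, no filter, the 2 groups alone, a replicate block, and each library left out in turn. Leaving out the 3 inhibitor libraries numbered 2 was added after seeing the data. The labels' replicate numbers pair the inhibitor media: all 9 same-numbered pairs of deviations from the group means correlated at 0.396 to 0.756. The pairs of FGF2/Activin with 2iLif (-0.0494 to 0.0386) and the pairs across naming styles (-0.195 to 0.21) did not.

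The rule names all 9 genes in every comparison, up to 4 genes of each list and comparison that passed with the largest change, of which the text gives some, and the 3 genes most like Trp53, Cdkn1a and Mdm2. The genes, the lists (other p53 targets, p53 regulators, relatives, other inhibitors of cyclin-dependent kinases, and genes lowered through p21 and DREAM) and these rules were chosen with earlier results of these data known. Promoter sequences are from RefSeq (GRCm38.p6), which matched 7 of the 9 genes.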

Additional observations from a re-analysis of the deposited data

How the results depend on the processing

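Of 90 log2 fold changes (9 genes in 10 comparisons), 61 kept their direction and their side of the threshold under every alternative. Of the 68 that were called, 57 remained called under all of them and 11 were lost under some. The replicate block changed the call of 4 results among the inhibitor media, as given above; in comparisons whose numbers do not pair it also called Trp53inp1 in FGF2/Activin against 2iLif (0.11, edgeR adjusted p = 0.013), Zmat3 in the combination against 2iLif (0.19, 0.021), and Zmat3 (-0.22, 0.008) and Trp53inp1 (0.16, 0.04) in Aurka inh against FGF2/Activin. It changed no other call on the 9 genes.

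The sign turned only in 6 results that were not called. Zmat3 in PD032 against FGF2/Activin was 0.018 with library totals, 0.0016 with no filter, 0.073 without the 3 inhibitor libraries numbered 2, and -0.11 to 0.072 with a library left out. Aen in the combination against PD032 was 0.0031 with DESeq2, 0.0041 with the 2 groups alone, and -0.034 to 0.027 with a library left out; Sesn2 was -0.12 to 0.024. In the combination against Aurka inh, Mdm2 was -0.00052 with the 2 groups alone. In the same comparison Ccng1 was -0.037 without the 3 libraries and -0.019 to 0.0698 with a library left out, and Zmat3 was 0.018 and -0.15 to 0.059. The cause was not tested. The number of genes called in that comparison was 3480 with the 2 groups alone, where fewer libraries estimate the spread, against 5311. With library totals the median log2 fold change of all genes was at most 0.081, in PD032 against 2iLif, where it was 0.0080 with TMM. The 100 counts over the gene lists moved by over 1.5 times in 106 of 1200 settings. The lowest count of any of the 9 genes was 605.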
